A study of Trichoderma reesei with 12 samples.

Results

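Around the genes of the transcription factors ypr1 (TrE0665C) and ypr2 (TrE0663W), 9 genes of Trichoderma reesei were followed in mycelium grown on cellulose. They were chosen by their measured transcript levels, as transcribed genes among the 18 genes numbered TrE0655 to TrE0672, and are 9 of those 18 and of the 10879 genes in the dataset. The choice states no threshold, and it leaves out TrE0657C and TrE0669C, which had more normalized counts in every DD library than ypr1. The other members are TrE0659C, TrE0660W, TrE0661W, TrE0662C, TrE0664C, TrE0670C and TrE0671C. The study asked which genes the regulator of G-protein signaling RGS4 influences in light and in darkness. Its 4 groups of 3 libraries were the deletion mutant Δrgs4 in constant light (LL), the wild-type QM6a in LL, Δrgs4 in constant darkness (DD) and QM6a in DD.

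All flasks held minimal medium with cellulose and were shaken at 28 °C until harvest at 96 h, and the 3 libraries of a group came from separate shake flasks. Δrgs4 is a single strain in the QM6a background in which the gene was replaced by a hygromycin resistance marker, and the study's methods state an additional copy of the cassette. A wild-type transformant with the marker alone was not analysed here. The deleted gene rgs4 (TrG0496W) had 4, 0 and 0 reads in Δrgs4 LL, against 1470 to 2040 reads in wild-type LL. In DD it had 5, 0 and 0 reads in Δrgs4, against 1588 to 1710 reads in the wild-type. Each library held between 11.25 and 15.84 M reads on genes (M, mega). Δrgs4 DD replicate 3 stood furthest from the other libraries of its group, with a median absolute departure of 0.207 on the log2 scale over all tested genes, against 0.1001 to 0.155 in the other 11 libraries.

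Sorbicillinoids are yellow polyketide pigments that T. reesei secretes into the medium. Their biosynthetic genes lie together in the SOR cluster, which also holds the genes of YPR1 and YPR2, transcription factors of the fungal zinc cluster type. YPR1 is known as the main activator of the cluster, and YPR2 as a second regulator that modulates it and acts on further secondary metabolite genes. RGS proteins shorten the signal of a heterotrimeric G-protein by speeding up GTP hydrolysis on its alpha subunit.

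By their numbers the members form a block of 7 consecutive genes, TrE0659C to TrE0665C, and a pair further on, TrE0670C and TrE0671C. ypr2 is the fifth and ypr1 the last gene of the block, with TrE0664C between them. In RefSeq's annotation of T. reesei v2.0, an assembly other than the one used for these data, 1 locus tag likewise lies between those of ypr2 and ypr1. There, genes for an acetyl xylan esterase (axe1), a cellulose-induced protein with a cellulose-binding module (cip1) and a lytic polysaccharide monooxygenase (cel61a) come 2, 3 and 4 loci after ypr1. Of the identifiers used here, 0 are listed in RefSeq. The locus numbers of both regulators come from the study. The remaining members therefore have no name or role here.

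Levels are given as normalized counts, that is, reads on a gene over the library's size factor. They serve to compare libraries for 1 gene, and not genes with each other, since they were not divided by gene length. Fold changes are differences between group means of log2(normalized counts + 2), which understates the change of genes with few reads. Genes were tested with limma over the 8895 genes that reached 10 reads in 3 or more libraries, and called at a log2 fold change beyond 0.58 in either direction with a Benjamini-Hochberg adjusted p under 0.05. In such bulk samples, fewer transcribing cells and less transcript per cell cannot be told apart.

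**Figure D1:**
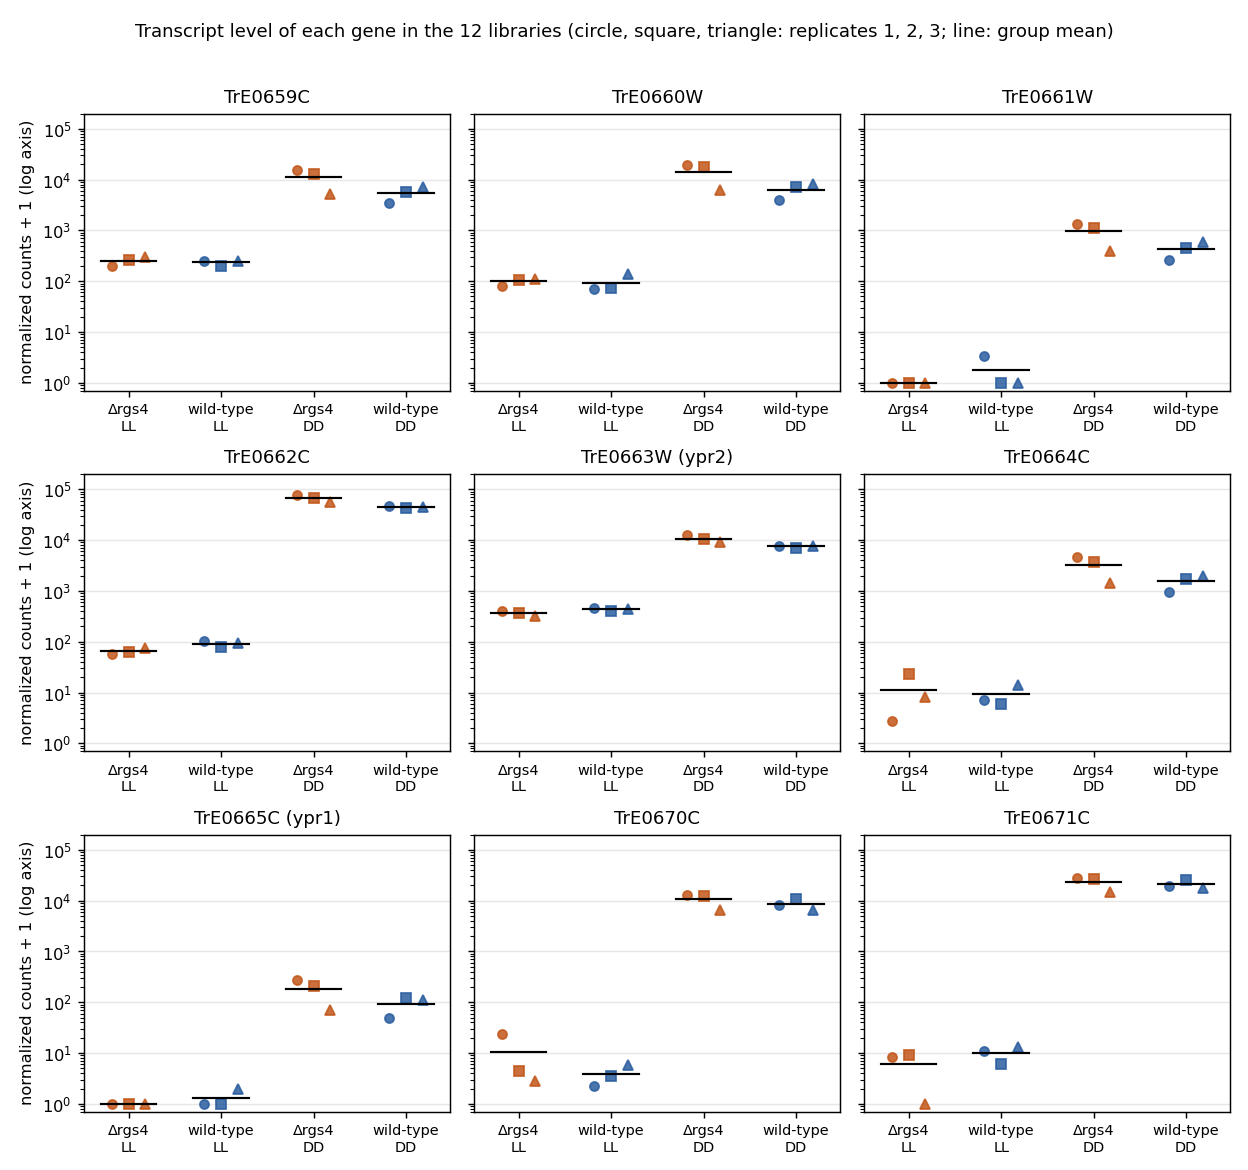
Transcript levels of the 9 genes in the 12 libraries, as normalized counts + 1 on a log axis. Each panel is 1 gene, each marker 1 library (circle, square and triangle for replicates 1, 2 and 3) and each line the mean of 3 libraries. In all 9 panels every LL library lies below every DD library. ypr1 lies at 0 in all 3 Δrgs4 LL libraries and between 48.26 and 276.7 normalized counts in the 6 DD libraries.

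The transcript levels of each of the 9 genes were far lower in light than in darkness in both strains. Of the 9 genes, 9 were called lower in LL in Δrgs4 and 9 in the wild-type. Of all tested genes, 22.0% were called lower in LL in Δrgs4 and 21.6% in the wild-type. The LL libraries of each of the 9 genes lay below its DD libraries in both strains, which 32.5% of all tested genes did in Δrgs4 and 35.1% in the wild-type. The median log2 fold change of the 9 genes was -8.27 in Δrgs4 and -7.28 in the wild-type, beside -0.01 over all tested genes in either strain. These counts are a description. TrE0661W, TrE0664C, TrE0665C, TrE0670C and TrE0671C had at least 10 reads in at most 2 of the 6 LL libraries, so that they reached the minimum for testing through darkness and had to differ. The filter did not fix the outcome for the 4 genes with at least 10 reads in all 12 libraries, TrE0659C, TrE0660W, TrE0662C and ypr2. They were chosen with earlier results of these data known, so that their direction is no independent evidence either.

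The activator gene ypr1 had no read in the 3 Δrgs4 LL libraries, against 276.7, 203.8 and 69.95 normalized counts in Δrgs4 DD. In the wild-type it had 0, 0 and 0.948 normalized counts in LL, the last from a single read, and 48.26, 122.0 and 108.7 in DD. ypr1 was thus at the limit of detection in light in both strains. With a floor of 3 reads over the group, its level in Δrgs4 was at least 185-fold lower in LL than in DD. In the wild-type, 1 read in LL and 273 reads in DD gave a ratio of DD to LL of 279, with a 95% exact counting interval from 49.7 to 11074. Counting intervals and floors cover counting error only, not the spread between cultures.

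The second regulator gene ypr2 remained well covered in light. It had 405.1, 364.8 and 319.1 normalized counts in Δrgs4 LL, against 12467, 10445 and 9194 in Δrgs4 DD. In wild-type LL it had 469.3, 410.5 and 439.0, against 7832, 7072 and 7769 in wild-type DD. The libraries of LL and DD were far apart in both strains, and the spread within each group was small beside this difference. The pooled level was 29.5-fold lower in LL than in DD in Δrgs4 and 17.4-fold lower in the wild-type. The log2 fold change of ypr2 was -4.87 ± 0.11 (SE) in Δrgs4, and -4.10 ± 0.11 in the wild-type. limma's Benjamini-Hochberg adjusted p was 1.8e-10 in Δrgs4 and 3.6e-10 in the wild-type. Among the 9 genes these were the smallest changes in each strain.

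TrE0662C, next to ypr2, drew the most reads of the 9 genes in darkness. It had 55.16, 60.42 and 74.26 normalized counts in Δrgs4 LL, against 77172, 66538 and 56296 in Δrgs4 DD. In the wild-type it had 102.7, 77.02 and 93.87 in LL, against 48026, 42663 and 44003 in DD. Pooled, the LL level was 1048-fold lower than the DD level in Δrgs4 and 502-fold lower in the wild-type. Its log2 fold change was -9.99 ± 0.14 (SE) in Δrgs4 and -8.92 ± 0.14 in the wild-type. The Benjamini-Hochberg adjusted p of limma was 3.6e-12 in Δrgs4 and 1.3e-11 in the wild-type, the lowest among the 9 genes in either strain.

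TrE0659C, at the edge of the block, kept some transcription in light. It had 194.4, 261.1 and 293.4 normalized counts in Δrgs4 LL, against 15173, 13179 and 5175 in Δrgs4 DD. In wild-type LL it had 254.2, 198.9 and 249.4, against 3469, 5752 and 7129 in wild-type DD. The LL levels of both strains lay in 1 narrow band, while the DD levels spread widely. The pooled level of TrE0659C was 44.1-fold lower in LL in Δrgs4 and 23.4-fold lower in the wild-type. On the log2 scale the changes were -5.35 and -4.48.

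Its neighbour TrE0660W had a wider gap between light and darkness. It had 77.77, 106.0 and 110.9 normalized counts in Δrgs4 LL, against 19556, 17390 and 6309 in Δrgs4 DD. In wild-type LL it had 69.67, 71.94 and 136.5, against 3897, 7038 and 8059 in wild-type DD. As for TrE0659C, the lowest of the Δrgs4 DD libraries was replicate 3 and the lowest of the wild-type DD libraries replicate 1. The pooled level of TrE0660W was 145-fold lower in LL in Δrgs4 and 66.9-fold lower in the wild-type.

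TrE0661W and TrE0664C were close to 0 in light. TrE0661W had 0 reads in the 3 Δrgs4 LL libraries, against 1358, 1132 and 391.2 normalized counts in Δrgs4 DD, so that its level was at least 964-fold lower in LL. In the wild-type it had 2.44, 0 and 0 normalized counts in LL, from 2 reads, against 258.4, 450.6 and 592.6 in DD. The ratio of DD to LL was 656, with a 95% exact counting interval from 181 to 5426.

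TrE0664C, the gene between ypr2 and ypr1, had 1.81, 21.66 and 7.33 normalized counts in Δrgs4 LL, against 4596, 3728 and 1450 in Δrgs4 DD. In wild-type LL it had 6.11, 5.08 and 13.28, against 969.1, 1706 and 1975 in wild-type DD. Few reads and a wide spread marked its LL values, and a clear gap separated them from DD. Its pooled level was 339-fold lower in LL in Δrgs4 and 188-fold lower in the wild-type.

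The pair further on had some of the steepest light profiles of the whole transcriptome. TrE0670C had 22.61, 3.42 and 1.83 normalized counts in Δrgs4 LL, against 13015, 12462 and 6539 in Δrgs4 DD. In the wild-type it had 1.22, 2.54 and 4.74 in LL, against 8086, 10737 and 6675 in DD. Of the 30 reads of TrE0670C in Δrgs4 LL, 25 came from replicate 1.

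TrE0671C had 7.23, 7.98 and 0 normalized counts in Δrgs4 LL, against 28250, 27109 and 14566 in Δrgs4 DD. In wild-type LL it had 9.78, 5.08 and 12.33, against 19773, 25201 and 17873 in wild-type DD. The pooled level of TrE0671C was 4700-fold lower in LL in Δrgs4 and 2357-fold lower in the wild-type, and that of TrE0670C 1075-fold and 2866-fold lower. Ranked by log2 fold change of LL against DD, TrE0671C came at rank 1 from the bottom of the 8895 tested genes in Δrgs4 and at rank 2 in the wild-type. TrE0670C came at rank 6 and at rank 3. These ranks rest on few reads in LL and on the constant added before taking logarithms.

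Together the 9 genes took between 0.740 and 1.17% of all reads on genes in the Δrgs4 DD libraries, against 0.00533 to 0.00576% in Δrgs4 LL. In the wild-type they took 0.677 to 0.721% in DD, against 0.00581 to 0.00723% in LL. TrE0662C alone supplied 42.4 to 56.3% of these reads in the 6 DD libraries. In LL it supplied 7.22 to 11.2%.

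**Figure D2:**
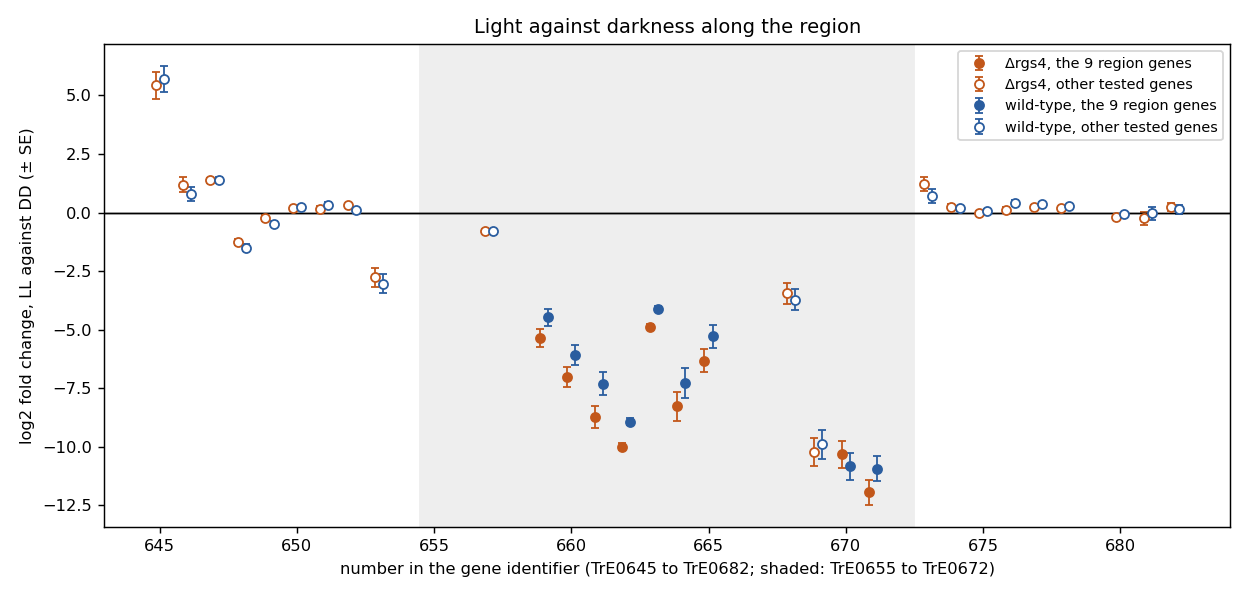
Log2 fold change of LL against DD (± SE of the fit) for the tested genes numbered TrE0645 to TrE0682, in Δrgs4 and in the wild-type, by the number in the gene identifier. Filled points are the 9 genes, open points other tested genes, and the shaded band is the region TrE0655 to TrE0672. The filled points lie between -11.94 and -4.10, while the medians of the genes left and right of the band lie between 0.18 and 0.25.

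Most tested genes flanking the region did not share the low levels in light. Of the 10 genes numbered TrE0645 to TrE0654, 9 were tested, with a median log2 fold change of LL against DD of 0.19 in Δrgs4 and 0.25 in the wild-type. In each strain 3 of them were called higher and 2 lower in LL, among them TrE0645C with 5.42 in Δrgs4 and 5.69 in the wild-type, TrE0653C with -2.76 and -3.03, and TrE0648W with -1.26 and -1.51. On the other side, TrE0673 to TrE0682, 9 of 10 genes were tested, with medians of 0.20 and 0.18. There 1 gene, TrE0673W, was called higher in LL in Δrgs4, with a log2 fold change of 1.23, and 0 genes in the wild-type, where it had 0.69. Its interaction with the strain, 0.53, did not pass the test (limma, adjusted p = 0.557). TrE0645C, TrE0648W, TrE0653C and TrE0673W were named after their values were seen.

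Within the region, 3 further genes were tested and 6 stayed under the minimum, with at most 12 reads in a library. TrE0657C had 627.0 to 731.6 normalized counts in Δrgs4 LL, against 1136 to 1232 in Δrgs4 DD, and its log2 fold change was -0.79 in both strains. TrE0668C had 10.12 to 38.43 normalized counts in Δrgs4 DD and 17.10 to 36.39 in wild-type DD, with a single read in all LL libraries together. The member with the fewest reads in darkness, ypr1, had 69.95 to 276.7 and 48.26 to 122.0 there. TrE0669C, which is no member, had 1875 to 5035 normalized counts in Δrgs4 DD and 2571.2 to 3931 in wild-type DD. In light it had 4.52, 0 and 0 normalized counts in Δrgs4 and 0, 5.92 and 0 in the wild-type. By read number and light profile TrE0669C thus lay among the members.

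In darkness, Δrgs4 had the higher log2 mean for all 9 genes, and 0 of 9 passed the thresholds. The log2 fold changes ran between 0.11 and 1.09 with a median of 0.86, beside 0.01 over all tested genes. limma called 0.0899% of all tested genes in this comparison, and 0% as higher in Δrgs4. At an unadjusted p under 0.05, 4 of the 9 genes were higher, TrE0659C, TrE0660W, TrE0662C and ypr2, beside 6.61% of all tested genes. limma-voom on the recovered reads also called 0 of the 9. Its adjusted p for TrE0662C was 0.0427, and that of limma on the values as deposited 0.0368, with log2 fold changes of 0.56 in both, within the fold threshold. The region was taken up with this tendency already known, so that its direction is no independent evidence.

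**Figure D3:**
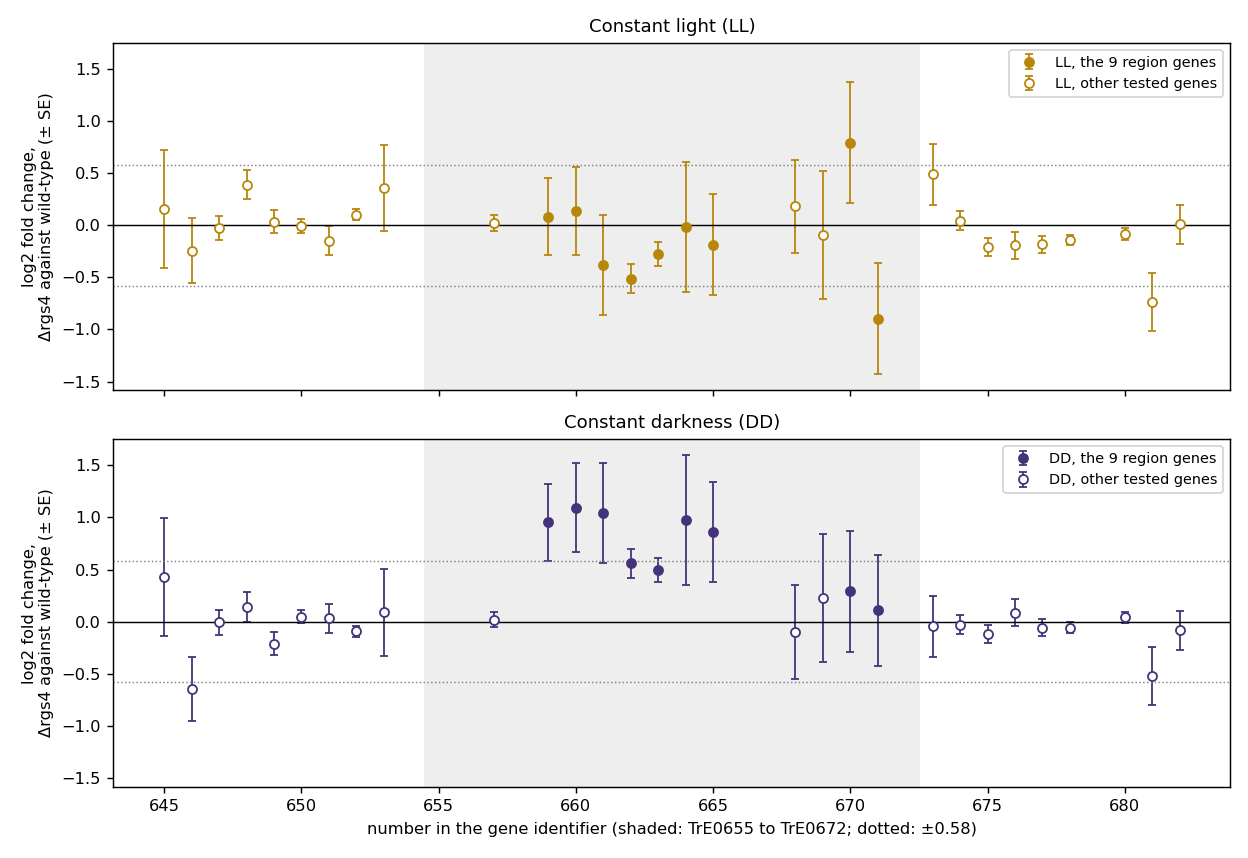
Log2 fold change of Δrgs4 against wild-type (± SE of the fit) for the tested genes numbered TrE0645 to TrE0682 by the number in the gene identifier, in LL (upper panel) and in DD (lower panel). Filled points are the 9 genes, the shaded band is the region TrE0655 to TrE0672 and dotted lines mark 0.58 in both directions. In DD the 9 filled points lie between 0.11 and 1.09, and in LL between -0.90 and 0.79 on both sides of 0.

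ypr2 had the lowest adjusted p of the 9 genes in darkness. Its Δrgs4 DD libraries, at 9194 to 12467 normalized counts, lay above those of the wild-type, at 7072 to 7832. The means were 10702 ± 1651 in Δrgs4 and 7558 ± 422 in the wild-type (SD, n = 3 each), and the log2 fold change was 0.49 ± 0.11 (SE). limma gave an adjusted p of 0.114 for it. TrE0662C gave a like picture. Its Δrgs4 DD libraries, at 56296 to 77172, lay above the wild-type ones, at 42663 to 48026. The difference was 0.56 ± 0.14 on the log2 scale (limma, adjusted p = 0.136). These were the only members whose DD libraries did not overlap between the strains, 2 of 9, which 9.15% of all tested genes did with higher levels in Δrgs4.

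ypr1 had a larger but less certain difference in darkness. Its mean was 183 ± 105 normalized counts in Δrgs4 DD and 92.98 ± 39.3 in wild-type DD (SD, n = 3 each), and the libraries overlapped. The log2 fold change was 0.86 ± 0.48 (SE; limma, adjusted p = 0.516). That fit used 1 spread per gene over all 12 libraries. The log2 SD of ypr1 was 0 in Δrgs4 LL and 0.323 in wild-type LL, against 1.03 in Δrgs4 DD and 0.710 in wild-type DD. The SE of ypr1 in DD can therefore be too small. With limma on only the 6 DD libraries its adjusted p was 0.646. TrE0659C, TrE0660W, TrE0661W and TrE0664C had log2 fold changes of 0.95, 1.09, 1.04 and 0.97, with adjusted p of 0.330, 0.330, 0.411 and 0.572, and overlapping libraries. With limma on only the 6 DD libraries their adjusted p were 0.537, 0.495, 0.553 and 0.545. TrE0670C and TrE0671C, with 0.29 and 0.11, had adjusted p of 0.897 and 0.971. None of the tested genes flanking the region was called between the strains in DD or in LL.

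Single libraries of both strains weighed on this comparison. In Δrgs4 DD all 9 genes had their highest level in replicate 1 and their lowest in replicate 3, the library that stood furthest from its group over all genes. Replicate 3 had a median deviation of the 9 genes from their mean over the 6 DD libraries of -0.50 on the log2 scale, against 1.06 in replicate 1 and 0.79 in replicate 2. In the wild-type, replicate 1 lay further from that mean, with -1.07, against -0.33 in replicate 2 and -0.13 in replicate 3. Wild-type replicate 1 was the lowest of the 6 DD libraries for 5 of the 9 genes. These deviations include the difference between the strains and do not measure the distance of a library from its own group. Without Δrgs4 DD replicate 3, a fit with 2 libraries in that group, 5 of the 9 genes were called higher in Δrgs4, beside 1.74% of all tested genes. They were TrE0659C with a log2 fold change of 1.44, TrE0660W with 1.61, TrE0661W with 1.59, TrE0662C with 0.68 and ypr2 with 0.60, and limma's adjusted p lay between 0.0170 and 0.0451. The median over the 9 genes was 1.44 in that fit, and ypr1 had an adjusted p of 0.0585. With any other library left out, 0 of 9 genes were called. Without wild-type DD replicate 1 the log2 fold change was 0.66 for TrE0659C and 0.45 for ypr1, and without Δrgs4 DD replicate 1 it was 0.66 and 0.46. TrE0671C turned to -0.061 without Δrgs4 DD replicate 1 and to -0.031 without Δrgs4 DD replicate 2. The part of these libraries in the result was not tested further.

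**Figure D4:**
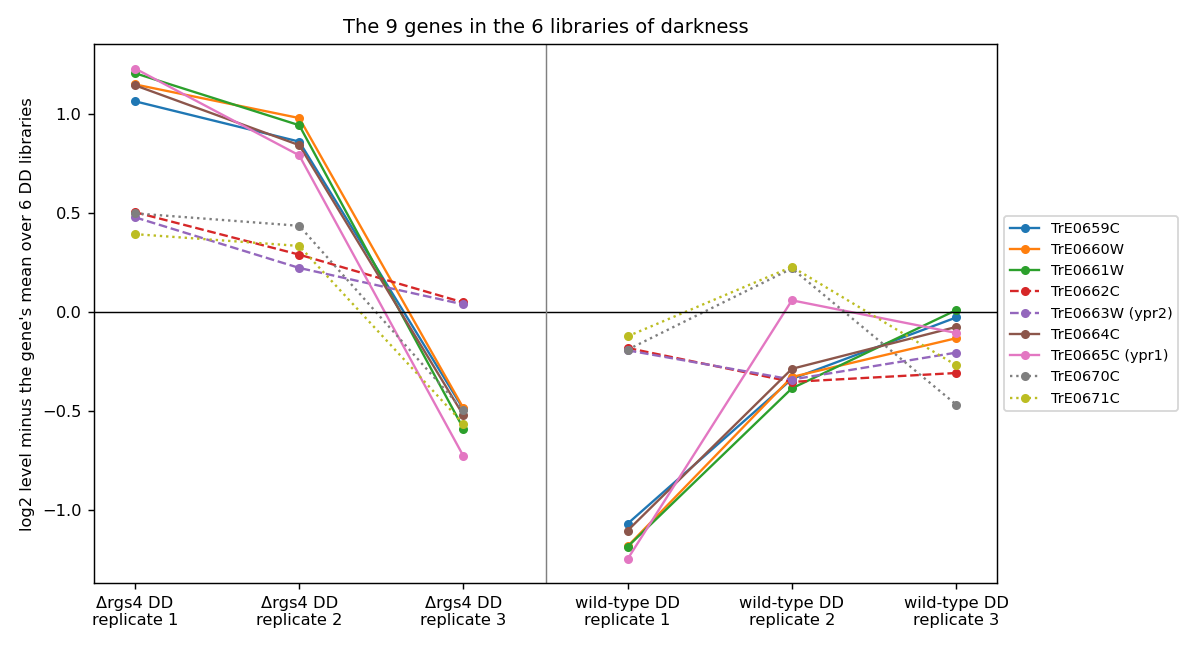
Log2 level of each of the 9 genes in the 6 DD libraries, minus the mean of the gene over these libraries. Lines only join the points of 1 gene, and replicates have no order. Δrgs4 DD replicate 1 is the highest library for all 9 genes, and 3 bundles of lines can be seen, of TrE0659C, TrE0660W, TrE0661W, TrE0664C and ypr1 (solid), of TrE0662C and ypr2 (dashed) and of TrE0670C and TrE0671C (dotted).

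The order of the 6 DD libraries divided the 9 genes into 3 sets. TrE0659C, TrE0660W, TrE0661W and TrE0664C shared 1 order, with wild-type replicate 1 lowest and Δrgs4 replicate 3 next to it. ypr1 had the same order except that wild-type replicates 2 and 3 changed places. TrE0662C and ypr2 shared another order, in which all wild-type libraries came below all Δrgs4 libraries. TrE0670C and TrE0671C shared the last one, with Δrgs4 replicate 3 lowest. The sets were read from these values and are a description.

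The sets also differed in how far the replicates lay apart. In wild-type DD the highest library exceeded the lowest 1.13-fold for TrE0662C and 1.11-fold for ypr2, against 2.04- to 2.53-fold for TrE0659C, TrE0660W, TrE0661W, TrE0664C and ypr1. TrE0670C and TrE0671C lay between, with 1.61- and 1.41-fold. In Δrgs4 DD the ratios were 1.37 and 1.36 for TrE0662C and ypr2, 2.93 to 3.96 for the 5 genes with ypr1, and 1.99 and 1.94 for the pair. Of all tested genes, 33.4% and 30.1% had a smaller SD on the log2 scale in wild-type DD than TrE0662C and ypr2, but 94.3 to 97.5% had a smaller one than the 5 genes with ypr1. In Δrgs4 DD the shares were 65.6% and 64.5% for TrE0662C and ypr2, and 94.8 to 96.6% for the 5 genes with ypr1.

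In light 0 of the 9 genes passed the thresholds between Δrgs4 and the wild-type, where limma called 2.11% of all tested genes. At an unadjusted p under 0.05, TrE0662C and ypr2 were lower in Δrgs4, 2 of 9, beside 12.7% of all tested genes. TrE0662C had 63.28 ± 9.86 normalized counts in Δrgs4 LL and 91.19 ± 13.0 in wild-type LL (SD, n = 3 each). Its log2 fold change was -0.51 ± 0.14 (SE; limma, adjusted p = 0.0443), and the change stayed within the fold threshold. ypr2 had 363.0 ± 43.1 in Δrgs4 LL and 439.6 ± 29.4 in wild-type LL, a difference of -0.28 on the log2 scale (limma, adjusted p = 0.146). The LL libraries of these genes did not overlap between the strains, as for 16.1% of all tested genes with lower levels in Δrgs4. The other 7 genes overlapped. Well covered in light among them were TrE0659C and TrE0660W, with log2 fold changes of 0.08 and 0.14 (limma, adjusted p = 0.922 and 0.875). The rest ran from -0.90 for TrE0671C to 0.79 for TrE0670C and rest on few reads.

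Whether the strains differed by another amount in light than in darkness was tested as the interaction, the difference in LL minus that in DD. It uses the same libraries as both comparisons above. TrE0662C was called, 1 of 9, beside 0.708% of all tested genes, or 0.506% in the same direction. Its interaction was -1.07 ± 0.20 (SE; limma, adjusted p = 0.0378), from -0.51 in LL and 0.56 in DD. The call was lost when any 1 of 11 of the 12 libraries was left out, with an adjusted p of TrE0662C between 0.0565 and 0.1002, and with limma-voom, with 0.104. Without Δrgs4 DD replicate 3 it held, with an adjusted p of 0.0161, and ypr2 was called as well, at -0.88 with an adjusted p of 0.0177, beside 1.16% of all tested genes called lower. With all libraries ypr2 had -0.77 ± 0.16 and an adjusted p of 0.0521, and the other 7 genes lay between -1.42 and 0.50 with adjusted p from 0.307 to 0.814.

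Outside the region, the genes whose profile over the 12 libraries was most like that of ypr1 were TrB0430C and TrA0006W, each with a Pearson r of 0.997 on the log2 scale. TrB0430C averaged 30.4 ± 13.2 normalized counts in Δrgs4 DD and 19.6 ± 4.74 in wild-type DD (SD, n = 3 each), with no read in LL. Most like ypr2 were TrE0168W and TrB0851C, also with 0.997. TrE0168W, a chloroperoxidase gene in the study's annotation, averaged 23597 ± 9343 in Δrgs4 DD and 9643 ± 583 in wild-type DD, against 14.1 ± 6.42 in Δrgs4 LL and 17.1 ± 6.39 in wild-type LL. All these genes share the gap between LL and DD. Of 8883 genes, 633 had an r over 0.95 with ypr1 and 767 with ypr2, and r within DD or within LL was not computed. Between ypr1 and the other 8 members r ranged from 0.978 to 0.997, and between ypr1 and ypr2 it was 0.986.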

How the data were processed

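RNA of 12 cultures was sequenced by the authors as paired ends after rRNA depletion, trimmed, aligned with HISAT2 2.2.1 to the QM6a genome and counted per gene with featureCounts. Its strand setting and its handling of multiply aligned reads are not stated in the sources at hand, so overlapping genes and near-identical copies are uncertain. The authors deposited values on a log2-like scale after the variance stabilizing transformation of DESeq2, and their columns carry strain, replicate and light condition. Raw counts deposited by the authors have 12 columns that no label pairs with a sample, and were not used. The lowest deposited value, 6.75, stands for 0 reads, and with it the transformation was inverted. All values gave whole reads within 0.01, and 11.25 to 15.84 M reads per library.

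limma 3.58.1 (R 4.3.3) was fitted to log2(normalized counts + 2) with 4 group means, a trended variance and all 12 libraries, on the 8895 genes that reached 10 reads in 3 or more libraries. P-values were adjusted over all of them, and the call thresholds of 0.58 and 0.05 are those of the study. The trended variance takes the mean over all libraries into account, so that the spread of genes with few reads in 1 light condition can be underestimated. The fit also uses 1 spread per gene over all 12 libraries. A light condition at or near 0 reads can thus lower or raise the spread used for the other. The steps were tested on simulated reads with the same spread for all genes and no loss of transcripts in light. That test therefore does not show how the fit treats genes near 0 in 1 light condition or with widely spread replicates. Where a group at 0 was compared, 3 reads over the group served as floor, and intervals were exact at 95%. Named are the 9 genes, the tested genes of the region, rgs4 and the 2 genes most correlated with ypr1 and with ypr2, beside 4 flanking genes named after their values were seen and the siderophore cluster as a list. The members and all lists were chosen with earlier results of these data known. Alternatives were upper-quartile factors, total reads, pseudocounts of 0.5 and 5, at least 1 read in any library, at least 10 reads in every library, a fit of only the 6 libraries compared, values as deposited, a block for the replicate number, adjusted p alone, limma-voom, treat at 1.5-fold, and leaving out each library. Python 3.11.15, pandas 2.3.3 and matplotlib 3.10.9 served for tables and plots.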

Additional observations from a re-analysis of the deposited data

Results flagged for a closer look

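TrE0662C was singled out because the difference between Δrgs4 and the wild-type differed between LL and DD by a test of that difference, with an interaction of -1.07 on the log2 scale. The difference was -0.51 in light and 0.56 in darkness, and neither was called. The call of the interaction of TrE0662C was lost in 14 of 23 alternatives. No cause was tested.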

How the results depend on the processing

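LL against DD kept 9 of 9 members called in both strains in each setting, except with at least 10 reads in every library, where the 4 members tested were called in each strain. Leaving out single libraries gave 9 to 9. The sizes depend on the scale: on the values as deposited, which compress few reads, the log2 difference of LL against DD was -1.70 in Δrgs4 and -1.23 in the wild-type for ypr1 (TrE0665C), -3.32 and -2.44 for TrE0661W, and -4.48 and -3.60 for TrE0664C. For Δrgs4 against the wild-type in DD the number of members called was 0 to 5 when libraries were left out, and 5 only without Δrgs4 DD replicate 3. In LL it was 0 to 1 when libraries were left out, with 1 without Δrgs4 LL replicate 3, 1 with scaling to total reads and 1 with the adjusted p alone. For the interaction the number of members called was 2 with total reads and 2 with values as deposited. It was 2 of the 4 tested with at least 10 reads in every library. It was 0 with limma-voom, 0 with treat and 0 to 2 when libraries were left out. The share of all tested genes called was computed for the main fit and without Δrgs4 DD replicate 3 only. The counts under other settings therefore only describe which calls held.

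With the replicate block the number of members called for the interaction was 0, and the adjusted p of TrE0662C was 0.0800. The block changed no other call. Correlations of same-numbered libraries of different groups, over deviations from the group mean, ranged from -0.406 to 0.347. Those of differently numbered libraries ranged from -0.416 to 0.437. Deviations from a mean of 3 libraries depend on each other, so these values cannot decide whether the numbers pair the samples.

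Some differences that were not called changed sign. TrE0659C in LL had -0.00998 with total reads and -0.046 to 0.25 when libraries were left out. TrE0664C in LL had 0.043 with pseudocount 5, 0.015 with values as deposited and -0.68 to 0.63 when libraries were left out. TrE0670C had an interaction of -0.14 with values as deposited, -0.31 to 1.03 when libraries were left out, and in LL -0.019 to 1.32. TrE0660W in LL ranged from -0.030 to 0.45, and TrE0671C in DD from -0.061 to 0.42. Of 1046 alternatives for single members 1006 kept direction and side of the thresholds and 14 reversed. The fit with only the 6 libraries compared could not be made for the interaction. The causes were not tested. Depth limits the values in light of the 5 members with few reads.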

Other observations

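The fusarinine C siderophore cluster, TrE0011C to TrE0016W, which makes a compound that binds iron and which the study relates to YPR2, had the opposite light profile to the genes around ypr1 and ypr2. In LL against DD, its median log2 fold change was 2.75 in Δrgs4 and 4.99 in the wild-type, beside -0.01 over all tested genes. TrE0016W was not called in Δrgs4, with 1.37. TrE0012W to TrE0016W had at least 10 reads in at most 1 DD library, so that they reached the minimum for testing through light. Their direction was thus given by the filter. Between the strains, 6 of 6 genes were called lower in Δrgs4 LL, with a median of -2.58. Of all tested genes, 2.11% were called there, counting both directions. In DD 0 of 6 genes were called, beside 0.0899% in both directions, where the few reads of TrE0012W to TrE0016W left little to compare. The study drew attention to this cluster on these samples, so that its direction is no independent evidence.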
